A study of Homo sapiens with 18 samples.

Results

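The ISG15 conjugation system was followed through the MCF10 series as 6 genes, ISG15, UBA7, UBE2L6, HERC5, HERC6 and USP18, which were taken by symbol from 35933 genes with values and were all found. RNA was sequenced from 3 breast epithelial lines, each as a negative CRISPR control line and a line labelled METTL3 knockdown, with 3 libraries (a, b and c) per group and 18 in all. MCF10A is an immortalized, non-tumorigenic line, MCF10AT1 was made from it with mutated HRas, and MCF10CA1h was obtained from MCF10AT1 through xenografts in mice. Every group had been transfected with an all-in-one Cas9 and guide construct that carries mCherry, with a control guide in the negative control lines and a guide to exon 1 of Mettl3 in the others, and was sorted on mCherry and diluted to single cells. All lines grew in the same medium with horse serum, insulin, hydrocortisone, cholera toxin and epidermal growth factor. The libraries of a group came from 1 CRISPR clone, so the guide and the clone cannot be told apart, and p-values measure the spread between libraries of a clone, which may be technical.

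ISG15 is a small protein with a pair of ubiquitin-like domains that cells attach to other proteins, in a reaction called ISGylation. The chain of enzymes resembles that of ubiquitin, with UBA7 as the activating enzyme (E1), UBE2L6 as the conjugating enzyme (E2) and HERC5 as the main human ligase (E3), while USP18 removes ISG15 again. HERC6 is a close relative of HERC5, and its counterpart is the main ISG15 ligase of the mouse. All are classical targets of type I and type III interferons, whose receptors act through the factor ISGF3, which includes STAT2 and IRF9, at a promoter motif named the ISRE. USP18 also binds the type I receptor subunit IFNAR2 and dampens its signal, apart from its protease activity. These are general facts on the system and not results of the libraries.

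The genes lie apart from each other except for the ligases. In the GENCODE release 44 annotation of hg38, ISG15 spans chr1:1001138-1014540 on the plus strand, UBA7 spans chr3:49805209-49813953 on the minus strand, UBE2L6 spans chr11:57551656-57568284 on the minus strand, and USP18 spans chr22:18150118-18177397 on the plus strand. HERC6 at chr4:88378739-88443097 and HERC5 at chr4:88457119-88506163 are neighbours on the plus strand with 14021 bases between them. The reads had been assigned to transcripts by short words of sequence, so it was counted how many of the 31-base words in each gene's GENCODE transcripts also occur in a transcript of another gene. The share was 29.0% for USP18, with 14.7% in USP41, an unprocessed pseudogene on the same chromosome that resembles it, and it was between 0% and 2.18% for the other members. USP41 itself was listed between 0 and 1.68 normalized counts in all 18 libraries. Values of USP18 are therefore less certain than those of the other members in how reads were split between near copies.

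The 250 bases before a RefSeq start of transcription are shown because the listed motif sits in them in some members and not in others. RefSeq promoter sequences (GRCh38.p14) were matched for 4 of the 6 members, ISG15, HERC5, HERC6 and UBE2L6, the last with 2 starts. These starts are not all the ends of the GENCODE spans given above. The windows of ISG15 and UBE2L6 lie inside their spans, that of HERC6 lies partly inside, and that of HERC5 lies just before its span. The ISRE core was searched as GAAA, any 2 bases and GAAA again or, on the other strand, TTTC, any 2 bases and TTTC, and is in capitals in the lines that follow. Each runs 5′ to 3′ on the strand of its gene.
ISG15, chr1:1013247-1013496, plus strand: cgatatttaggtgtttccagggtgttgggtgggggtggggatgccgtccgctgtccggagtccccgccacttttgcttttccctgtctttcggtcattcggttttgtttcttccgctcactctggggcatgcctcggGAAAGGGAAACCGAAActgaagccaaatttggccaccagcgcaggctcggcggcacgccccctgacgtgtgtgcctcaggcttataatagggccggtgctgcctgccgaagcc
HERC5, chr4:88456869-88457118, plus strand: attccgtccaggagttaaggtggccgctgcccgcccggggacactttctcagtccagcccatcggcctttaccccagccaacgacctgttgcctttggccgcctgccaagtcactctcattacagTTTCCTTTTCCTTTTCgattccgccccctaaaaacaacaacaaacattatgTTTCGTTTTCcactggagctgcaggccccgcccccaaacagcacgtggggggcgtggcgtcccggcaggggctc
HERC6, chr4:88378602-88378851, plus strand: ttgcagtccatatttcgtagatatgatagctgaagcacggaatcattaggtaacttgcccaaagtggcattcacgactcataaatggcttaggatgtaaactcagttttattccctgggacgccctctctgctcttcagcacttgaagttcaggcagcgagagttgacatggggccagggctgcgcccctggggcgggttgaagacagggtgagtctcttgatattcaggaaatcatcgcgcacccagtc
UBE2L6, chr11:57567936-57568185, minus strand: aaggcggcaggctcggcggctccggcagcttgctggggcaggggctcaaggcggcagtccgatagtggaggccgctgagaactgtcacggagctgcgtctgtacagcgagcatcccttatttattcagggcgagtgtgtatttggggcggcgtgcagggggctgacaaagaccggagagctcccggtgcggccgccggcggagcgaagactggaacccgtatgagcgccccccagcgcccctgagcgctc
The ISG15 window holds 2 matches that overlap each other, between 113 and 98 bases before the start. The HERC5 window holds 3 matches, all on the other strand, of which the first 2 overlap at 125 to 110 bases before the start and the last lies at 74 to 65 bases. No match was found in the HERC6 window or in either of the UBE2L6 windows, which says only that these letters are not in these bases. Of all 35116 promoter windows of this length, 3.02% hold the motif. Among other interferon-stimulated genes listed for this work, 24 of the 35 with a sequence (68.6%) held it in any of their windows. The former share is per window and the latter per gene, so they are not directly comparable. The shorter GAS motif, TTC, any 3 bases and GAA, which reads the same on the other strand, is in 6.57% of all windows and in none of those of the members.

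The deposited values are normalized counts, which summed to between 21347352 and 31681834 per library. They are per gene and not per length, so levels were compared between libraries and not between genes. METTL3, the targeted gene, is no strict check of the labels, since a cut in its first exon need not lower its transcript count. It was at 752, 686 and 459 normalized counts in the MCF10A control and 939, 981 and 509.8 in its labelled knockdown, at 968, 1016 and 805 against 816, 752 and 902 in MCF10AT1, and at 1022, 1102 and 1280.4 against 825, 745 and 843 in MCF10CA1h. The fold change passed the test in MCF10CA1h, where it was -0.49 ± 0.12 (log2 ± SE, adjusted p = 0.0234). It was 0.33 (adjusted p = 0.618) in MCF10A and -0.17 (adjusted p = 0.707) in MCF10AT1. The call in MCF10CA1h was lost in 4 of 15 alternatives. The paper reports lower METTL3 protein by Western blot in knockdown clones of every line, only moderately so in MCF10CA1h. It also reports a smaller decrease of METTL3 mRNA by real-time PCR. The RNA mark that METTL3 sets, m6A, was significantly lower there in MCF10AT1 and MCF10CA1h and not significantly in MCF10A. Which of the paper's knockdown clones was sequenced is not stated. Replicate b of the MCF10A control stood apart from its partners in the genes described here. It was the lowest of the 3 control libraries in 6 of 6 members and in 36 of 39 other interferon-stimulated genes, against 26.0% of all genes tested, with medians of -1.96, -1.36 and 0.00 on the log2 scale relative to the mean of a and c.

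The system moved differently in each line. In MCF10CA1h every member lay higher in all labelled knockdown libraries than in any control library, ISG15 28.7-fold by the means. In MCF10AT1 the activating and conjugating enzymes UBA7 and UBE2L6 rose 17.7-fold and 146-fold, while ISG15 and USP18 overlapped between the groups. In MCF10A no member passed the unpaired test, and ISG15 and USP18 were lower in each labelled knockdown library than in any control library. Calls rest on limma with a Benjamini-Hochberg adjusted p under 0.05, over genes with a mean of at least 10 in the libraries of the fit. By that rule 5 of 5 tested members rose in MCF10CA1h, where 12.8% of all genes were called and 7.91% were higher. In MCF10AT1 2 of 5 tested members were called, both higher, where 13.0% of all genes were called and 7.07% were higher. MCF10A had 0 of 6 called, where 2.65% of all genes were, although the unadjusted p of 2 members (ISG15 and USP18) was below 0.05. These counts come from the fit without pairing of replicate letters. With the replicate block 2 of 6 members were called in MCF10A, ISG15 (adjusted p = 0.0224) and USP18 (adjusted p = 0.0365), both lower, and 3 of 5 in MCF10AT1, where HERC6 was called lower (adjusted p = 0.0081) beside UBA7 and UBE2L6. Without overlap between the groups were 6 of 6 members in MCF10CA1h, all higher in the labelled knockdown (17.4% of all genes), 3 of 6 in MCF10AT1 (32.8% in either direction) and 2 of 6 in MCF10A, both lower (13.4%). Members were chosen with results of these data known, so these counts are a description of the 6 genes.

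**Figure D1:**
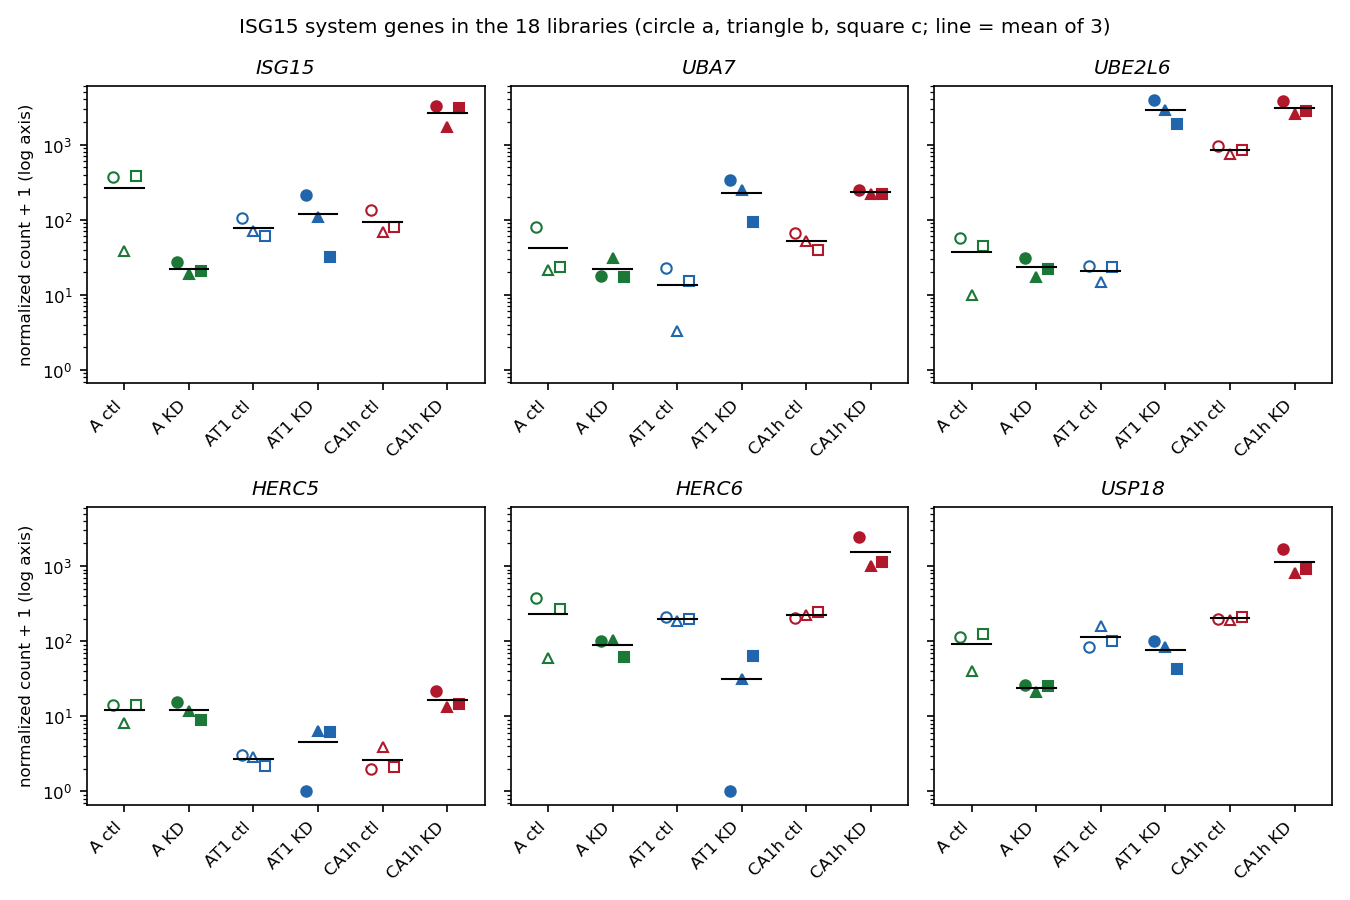
Normalized count plus 1 (log axis) of each of the 6 genes in the 18 libraries, in the control (open) and labelled knockdown (filled) groups of MCF10A (green), MCF10AT1 (blue) and MCF10CA1h (red), where bars are the means of 3. UBE2L6 is between 1906 and 3983 in the MCF10AT1 knockdown against 13.97 to 23.4 in its control, and every gene is higher in the MCF10CA1h knockdown than in its control.

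ISG15, the modifier itself, rose in MCF10CA1h and passed the test in no other line. In the MCF10A control the libraries a, b and c held 370.1, 37.7 and 378 normalized counts, and the labelled knockdown held 26.4, 18.01 and 19.6. The groups did not overlap, although control replicate b was far nearer to the knockdown libraries than to its partners. The difference was -2.99 ± 0.81 (log2 ± SE, 95% interval -4.86 to -1.13, adjusted p = 0.0976). Without control replicate b it was -4.09 (adjusted p = 0.0198), where leaving out the lowest control must widen the difference. With the replicate letter as a block it was called at an adjusted p of 0.0224. It stayed without a call in 12 of 15 alternatives, with an adjusted p of up to 0.256. MCF10AT1 had 103, 68.9 and 60.5 in the control and 214, 107 and 31.01 in the knockdown, where the knockdown libraries lay on both sides of the control. Their difference was 0.25 ± 0.68 (95% interval -1.32 to 1.82, adjusted p = 0.85), which leaves room for a change of more than 2-fold in either direction, and it was -0.38 without knockdown replicate a. In MCF10CA1h the control held 132, 68.4 and 78.2, and the knockdown held 3229, 1713 and 3071. The 3 knockdown libraries were all above every other library of the study, and ISG15 rose by 4.83 ± 0.28 (95% interval 4.21 to 5.46, adjusted p = 1.8e-05).

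UBA7, the E1 enzyme that starts the chain and serves ISG15, averaged 40.5 in the MCF10A control, 12.7 in the MCF10AT1 control and 51.8 in the MCF10CA1h control. MCF10A values were 78.1, 20.7 and 22.6 in the control and 16.8, 29.6 and 16.5 in the knockdown, so that the groups overlapped and only control replicate a was apart. The difference was -0.70 ± 0.57 (adjusted p = 0.571). In MCF10AT1 the control held 21.7, 2.3 and 14.1, and the knockdown 337, 247 and 91.1. UBA7 rose there by 4.25 ± 0.82 (95% interval 2.37 to 6.13, adjusted p = 0.0114). That call was lost without knockdown replicate a (3.86, adjusted p = 0.0536) or b (4.08, adjusted p = 0.0589). MCF10CA1h had 65.6, 50.9 and 39.0 in the control and 251, 222 and 219 in the knockdown, an increase of 2.16 ± 0.23 (adjusted p = 0.000293).

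UBE2L6, the E2 enzyme, showed the largest difference of any member in any line. In MCF10A it was at 56.5, 9.08 and 43.3 in the control and at 30.0, 16.1 and 21.2 in the knockdown, with control replicate b below and the other controls above all knockdown libraries. The difference was -0.38 ± 0.66 (adjusted p = 0.819), and 0.10 without control replicate a. MCF10AT1 had 23.4, 13.97 and 22.6 in the control and 3983, 2883 and 1906 in the knockdown. The rise was 7.09 ± 0.39 (95% interval 6.19 to 7.99, adjusted p = 3.8e-05) and was called under every alternative run. The MCF10CA1h control was at 952, 757 and 845, and its knockdown at 3802, 2576 and 2784. UBE2L6 rose there by 1.83 ± 0.15 (adjusted p = 8.16e-05), and the knockdown libraries of MCF10AT1 and MCF10CA1h overlapped in level.

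HERC5, the ligase, was at low values throughout and was tested only in MCF10A. It was at 13.2, 7.10 and 13.1 in the MCF10A control and at 14.7, 10.7 and 7.88 in the knockdown, which overlapped (-0.00 ± 0.48, 95% interval -1.11 to 1.11). MCF10AT1 had 2.03, 1.91 and 1.15 in the control and 0, 5.30 and 5.28 in the knockdown. These are too low for the filter, and replicate a is listed at 0. In MCF10CA1h the control held 0.980, 2.88 and 1.12 and the knockdown 20.8, 12.5 and 13.7, so the groups were clearly separated at a low level. A fit without the filter gave 2.68 ± 0.60 (adjusted p = 0.0189).

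HERC6, the relative of HERC5, was lower in every labelled knockdown library of MCF10AT1 and higher in every one of MCF10CA1h. In MCF10A the control held 370.4, 58.0 and 268 and the knockdown 99.1, 102 and 61.4. Control replicate b lay below all knockdown libraries and the other controls above them, and the difference was -1.07 ± 0.63 (adjusted p = 0.423). MCF10AT1 control libraries were close together at 211, 183 and 199, while the knockdown libraries were at 0, 30.7 and 61.7. All 3 were lower than any control, and replicate a is listed at 0. The difference was -3.98 ± 1.35 (95% interval -7.07 to -0.89, adjusted p = 0.0942). It was called with the replicate letter as a block (adjusted p = 0.00807) and, at -2.15, without knockdown replicate a (adjusted p = 0.0351), so the direction did not rest on the library listed at 0. In 10 of 15 alternatives it stayed without a call, with an adjusted p of up to 0.230. The MCF10CA1h control held 202, 221 and 242, and the knockdown 2418, 1017 and 1147, an increase of 2.67 ± 0.27 (adjusted p = 0.000258).

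USP18, the protease that removes ISG15, was near in pattern to ISG15. MCF10A had 113, 38.6 and 124 in the control and 25.2, 20.3 and 24.1 in the knockdown, which was lower in every library. The difference was -1.78 ± 0.47 (95% interval -2.87 to -0.69, adjusted p = 0.0939), and it was called with the replicate letter as a block (adjusted p = 0.0365). It stayed without a call in 13 of 15 alternatives, with an adjusted p of up to 0.263. In MCF10AT1 the control held 83.9, 158 and 101 and the knockdown 98.6, 82.8 and 41.4, which overlapped (-0.65 ± 0.48, adjusted p = 0.422). MCF10CA1h control libraries were at 197, 193 and 211, and those of the knockdown at 1691, 816 and 902. USP18 rose there by 2.42 ± 0.24 (adjusted p = 0.000198).

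**Figure D2:**
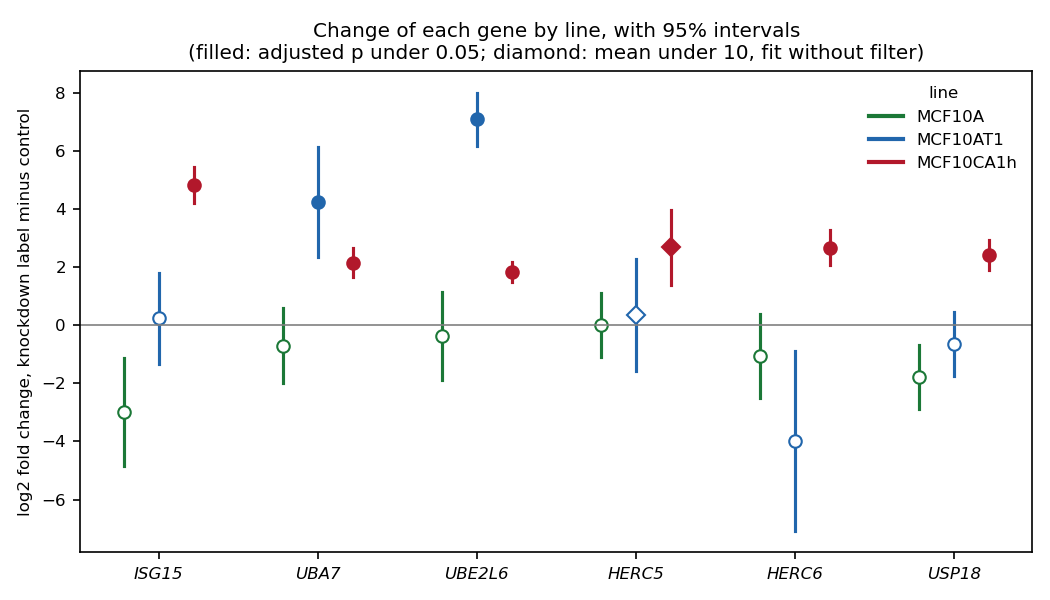
Log2 fold change of each gene between the labelled knockdown and its control in MCF10A, MCF10AT1 and MCF10CA1h, with 95% intervals from limma, where filled symbols have an adjusted p under 0.05 and diamonds come from the fit without a filter. UBE2L6 and UBA7 are largest in MCF10AT1 at 7.09 and 4.25, ISG15 is largest in MCF10CA1h at 4.83, and no symbol of MCF10A is filled.

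The number called depended on how the spread was estimated. When all 18 libraries shared 1 estimate, 2 members were called in MCF10A (ISG15 and USP18), 3 in MCF10AT1 (UBA7 and UBE2L6 higher, HERC6 lower with an adjusted p of 0.0077) and 2 in MCF10CA1h (again ISG15 and USP18), where UBA7 had an adjusted p of 0.135, UBE2L6 of 0.0811 and HERC6 of 0.323. An exact permutation test of 3 libraries against 3 cannot go below 0.1, which is the value of each member whose groups did not overlap.

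The order of levels over the 6 groups differed between members. ISG15 ran, by the means, from 21.4 ± 4.48 (SD, n = 3) in the MCF10A knockdown through 77.5 ± 22.7 in the MCF10AT1 control, 92.9 ± 34.3 in the MCF10CA1h control, 118 ± 92.1 in the MCF10AT1 knockdown and 262 ± 194 in the MCF10A control to 2671 ± 834 in the MCF10CA1h knockdown. Only the lowest and the highest of these groups did not overlap with their neighbour. For UBE2L6 the 3 lowest groups, between 20.0 and 36.3 on average, overlapped with their neighbours, as did the 2 highest at 2924 and 3054, and the MCF10CA1h control at 851 stood alone between them. UBA7 had the same 2 groups on top, at 225 in the MCF10AT1 knockdown and 231 in the MCF10CA1h knockdown, which overlapped each other and no other neighbour. HERC6 was lowest in the MCF10AT1 knockdown and highest in the MCF10CA1h knockdown, with the 3 control groups at 198, 222 and 232 overlapping. USP18 began with the MCF10A knockdown at 23.2 ± 2.59 and ended with the MCF10CA1h control at 200.2 ± 9.97 and knockdown at 1136 ± 482, each clear of its neighbours, and the 3 groups in between, from 74.3 to 114, overlapped. HERC5 had the MCF10CA1h control, the MCF10AT1 control and the MCF10AT1 knockdown at the bottom, and the MCF10A groups at 11.1 and 11.2 overlapped with each other and with the MCF10CA1h knockdown at 15.6 on top.

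Whether the knockdown effect differed between lines was tested as an interaction in 1 fit of the 18 libraries, in which the contrasts share libraries. Between MCF10AT1 and MCF10A, 3 of 5 tested members differed, where 21.6% of all genes did. The effect on UBE2L6 was larger in MCF10AT1 by 7.47 ± 0.69 (adjusted p = 8.38e-07) and that on UBA7 by 4.94 ± 0.92 (adjusted p = 0.000975). For ISG15 the difference was 3.24 ± 1.04 (adjusted p = 0.0347), which passed the threshold narrowly and was lost in 8 of 27 alternatives, up to an adjusted p of 0.0941. Between MCF10CA1h and MCF10A, 2 of 5 differed, where 5.34% of all genes did. ISG15 differed by 7.83 ± 1.04 (adjusted p = 0.000412) and USP18 by 4.20 ± 0.61 (adjusted p = 0.000633). UBA7 (2.86, adjusted p = 0.0885), UBE2L6 (2.20, adjusted p = 0.0772) and HERC6 (3.74, adjusted p = 0.181) had the same sign without a call. UBE2L6 was called with the replicate block (adjusted p = 0.0174) and stayed without a call in 24 of 27 alternatives.

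The effects in MCF10CA1h and MCF10AT1 differed in both directions. Of the 5 tested members, 4 had a different effect in MCF10CA1h than in MCF10AT1, where 18.2% of all genes did. ISG15 was more positive in MCF10CA1h by 4.59 ± 1.04 (adjusted p = 0.00519), USP18 by 3.08 ± 0.61 (adjusted p = 0.00184) and HERC6 by 6.65 ± 1.47 (adjusted p = 0.0044). The effect on UBE2L6 was smaller there, by -5.26 ± 0.69 (adjusted p = 3.55e-05). UBA7, at -2.09 ± 0.92 (adjusted p = 0.136), was not called, with an interval from -4.04 to -0.13. HERC6 is listed at 0 in MCF10AT1 knockdown replicate a, and the size of its difference depended on the libraries used. With a library left out it went down to 4.82, with a limma adjusted p of up to 0.0148, and the call was kept in 27 of 27 alternatives.

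The negative control lines were compared to see how the system stood without the guide to METTL3. Each is a single clone, so a difference between lines and a difference between clones cannot be told apart. UBE2L6 set MCF10CA1h apart, at 851 ± 97.9 (SD, n = 3) against 36.3 ± 24.5 in MCF10A and 20.0 ± 5.24 in MCF10AT1. It was higher by 4.85 ± 0.58 than in MCF10A (adjusted p = 0.000446) and by 5.37 ± 0.58 than in MCF10AT1 (adjusted p = 0.0004). USP18 was also higher in MCF10CA1h than in MCF10A, by 1.28 ± 0.44 (adjusted p = 0.0453), but that call was lost in 8 of 18 alternatives. They include the replicate block (adjusted p = 0.0705), leaving out MCF10A control replicate b (0.75, adjusted p = 0.135), MCF10AT1 control replicate a (adjusted p = 0.056) or MCF10CA1h control replicate a, b or c (adjusted p between 0.0982 and 0.121). Thus 2 of 5 tested members differed between MCF10CA1h and MCF10A, where 37.8% of all genes did, and 1 of 5 between MCF10CA1h and MCF10AT1, where 21.8% did. Between MCF10AT1 and MCF10A 0 of 5 were called by limma, where 28.1% of all genes were, and 1 of them, UBA7, had an unadjusted p under 0.05. Without MCF10A control replicate b, ISG15 was lower in MCF10AT1 than in MCF10A by -2.29 (adjusted p = 0.0125) and in MCF10CA1h by -2.06 (adjusted p = 0.0087), and UBE2L6 was lower in MCF10AT1 by -1.30 (adjusted p = 0.0494). That library was the lowest MCF10A control in all 6 members, so leaving it out must raise the MCF10A level, and these calls are no support. With all libraries limma gave an adjusted p of 0.248 and 0.348 for ISG15 and 0.499 for UBE2L6. HERC5 was below the filter in part of the lines, and the fit without it gave lower values than in MCF10A both for MCF10AT1 (-2.14 ± 0.59, adjusted p = 0.0412) and for MCF10CA1h (-2.21 ± 0.59, adjusted p = 0.0245). UBA7 differed without a call between MCF10CA1h and MCF10AT1, by 2.31 ± 0.75 (adjusted p = 0.0545), and was called higher with the replicate block (adjusted p = 0.0337). It stayed without a call in 12 of 17 alternatives. Among controls the replicate block matched the letters of different lines, a pairing that was not checked.

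Other enzymes reported to act on ISG15 were called in MCF10CA1h alone of the 3 lines. Of 10 such genes (the ligases ARIH1 and TRIM25, the conjugating enzyme UBE2E1 and proteases with activity on ISG15), 9 were tested, and 0 were called by limma in MCF10A or MCF10AT1, with 0 at an unadjusted p under 0.05 in either. In MCF10CA1h 2 were called, 1 in each direction, which is 22.2% against 12.8% of all genes. TRIM25, also a ubiquitin ligase of the RIG-I pathway, was at 2521, 2998 and 2646 in the control and at 4361, 3921 and 3570 in the knockdown, a rise of 0.54 ± 0.11 (adjusted p = 0.01). USP2, a protease of ubiquitin and ISG15, fell by 1.03 on the log2 scale ± 0.29 (adjusted p = 0.0462), from 42.9, 43.8 and 41.5 to 22.5, 20.8 and 18.02. Among 14 relatives of the members that serve other modifiers, such as UBE2L3, UBA1 and the remaining HERC genes, 1 was called in MCF10A, where 2.65% of all genes were. It was ATG7, the activating enzyme of autophagy, at -0.79 ± 0.15 (adjusted p = 0.0399). In MCF10AT1 and MCF10CA1h 0 of these 14 were called by limma, with 2 and 3 at an unadjusted p under 0.05. The other modifiers of the ubiquitin family had 0 of 12 called in MCF10A, 0 in MCF10AT1 (1 and 0 at an unadjusted p under 0.05) and 2 in MCF10CA1h, 1 higher and 1 lower. The lower was URM1, which fell by 0.83 ± 0.11 on the log2 scale (adjusted p = 0.000935).

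Genes upstream of the system were read from lists of ligands and of receptors and signalling genes. Of the 8 interferon genes with values, IFNL1, a type III interferon, was at 0, 1.77 and 6.20 in the MCF10CA1h control and at 40.8, 22.2 and 45.5 in the knockdown. It rose by 3.71 ± 0.72 (adjusted p = 0.00827), and 1 of the 2 ligands tested there was called, where 12.8% of all genes were. IFNB1 was listed at 0 in the 3 control libraries of that line and at 6.09, 1.16 and 7.73 in the knockdown, below the filter. In MCF10AT1 the only ligand tested, IFNE, an epithelial type I interferon, rose by 2.97 ± 0.58 (adjusted p = 0.0115), from 19.6, 50.7 and 16.3 to 123, 222 and 321. In MCF10A 1 ligand was tested and 0 were called by limma (0 at an unadjusted p under 0.05).

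IRF9 and STAT2, which belong to ISGF3, rose in MCF10CA1h. IRF9 was at 150.2, 118 and 165 in the control and at 1369, 1053 and 1093 in the knockdown, a rise of 3.01 ± 0.17 (adjusted p = 1.76e-05). STAT2 rose by 1.84 ± 0.13 (adjusted p = 4.06e-05) and IRF7, which drives interferon genes, by 2.67 ± 0.18 (adjusted p = 3.27e-05). Of 17 receptor and signalling genes 4 were called there (23.5% against 12.8% of all genes), all higher, and none of the receptor subunits was among them. STAT2 was named as a part of ISGF3 after its value was seen. In MCF10A IRF9 fell by 1.98 ± 0.36 on the log2 scale (adjusted p = 0.0333), from 736, 368 and 1020.2 to 202, 141 and 155, and the type III receptor gene IFNLR1 rose by 3.26 ± 0.49 (adjusted p = 0.0173). They were 2 of 17 (11.8% against 2.65% of all genes). MCF10AT1 also had 2 of 17, near the share of all genes (11.8% against 13.0%). These were the feedback inhibitor SOCS3 at 2.24 ± 0.33 (adjusted p = 0.00309) and the factor IRF1 at 1.76 ± 0.47 (adjusted p = 0.0428). IRF9 was at -0.51 there without a call.

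The other interferon-stimulated genes were counted in the same fits. In MCF10CA1h 37 of 39 rose, where 7.91% of all genes were called higher. The median log2 fold change was 2.30 against -0.02 for all genes and 2.42 for the 5 tested members. IFIT1, which binds viral RNA, rose by 5.93 ± 0.32 (adjusted p = 1.76e-05), IFI27 by 5.89 ± 0.34 and IFI6 by 5.65 ± 0.28. In MCF10A 6 of 38 fell and 0 rose, where 2.65% of all genes were called. The median was -1.20 against -0.00 for all genes and -0.88 for the members. Those that fell include IFI27 at -6.52 ± 1.02 (adjusted p = 0.0193), BST2, a tether of budding viruses, at -5.55 ± 0.51 (adjusted p = 0.0052) and IFI6 at -5.38 ± 0.98 (adjusted p = 0.0333). Without MCF10A control replicate b 11 were called, but that library was the lowest control in 36 of 39 of these genes. With the replicate block 15 were called, where the calls over all genes went from 409 to 1172. Without knockdown replicate a, b or c it was 1 each. In MCF10AT1 8 of 37 rose and 2 fell, where 13.0% of all genes were called and 7.07% were higher. The median was 0.24 against 0.02 for all genes and 0.25 for the members.

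Most but not all of the genes called in MCF10AT1 were higher. BST2 was at 52.3, 20.1 and 27.8 in the control and at 24515, 18960 and 9966 in the knockdown, a rise of 9.03 ± 0.45 (adjusted p = 2.51e-05). IFITM1, a membrane protein that restricts viral entry, rose by 5.19 ± 0.40 (adjusted p = 0.000152) and PSMB9, a subunit of the immunoproteasome, by 4.07 ± 0.69 (adjusted p = 0.00628). IFI27, in contrast, fell by 3.46 on the log2 scale (adjusted p = 0.00202). IFIT1 was at -0.67 and IFI6 at 0.39, neither of them called.

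**Figure D3:**
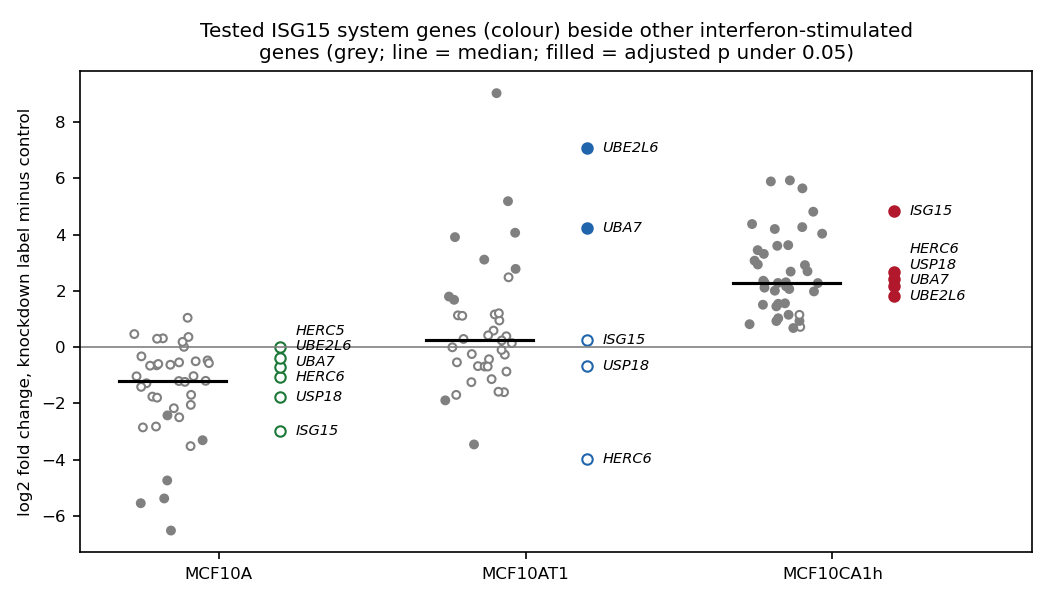
Log2 fold change between the labelled knockdown and control of the tested members (coloured, named) and of other interferon-stimulated genes (grey, with their median as a line) in each line, filled where the adjusted p is under 0.05. In MCF10CA1h 37 of 39 grey symbols are filled and positive (7.91% of all genes were called higher). In MCF10A 6 of 38 are filled and negative (2.65% of all genes were called). In MCF10AT1 UBE2L6 and UBA7 lie far above a median of 0.24.

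Likeness of pattern was measured as Pearson's r of the log2 values over the 18 libraries, given as a description of points that share 6 groups. The 5 genes most like ISG15 were IFIT3 (r = 0.957), IFIT1 (0.957), IFI6 (0.955), IRF7 (0.943) and PARP9 (0.939), and they were the same 5 genes without MCF10A control replicate b. Among the members USP18 came nearest, with r = 0.904 and rank 11 of 15896 genes, followed by UBA7 (0.624, rank 402), UBE2L6 (0.576, rank 661), HERC6 (0.525, rank 1072) and HERC5 (0.329, rank 3344). UBA7 and UBE2L6 were more like each other (r = 0.875) than like ISG15. By Pearson's r each other member had its own nearest genes. They were B2M, the gene with identifier ENSG00000261838 and APOL3 for UBA7 (r of 0.911 to 0.907), SMIM10, MOXD1 and CSF3 for UBE2L6 (0.981 to 0.975), ROBO4, DGKA and HMGB1P3 for HERC5 (0.854 to 0.833), PMEPA1, TUFT1 and PSMC6 for HERC6 (0.884 to 0.868) and SAMHD1, IFI35 and OASL for USP18 (0.935 to 0.927). This depended on the measure, since by Spearman's rho B2M was nearest to both UBA7 (0.922) and UBE2L6 (0.957).

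Within groups the picture was another. When each value was taken as its deviation from the mean of its group, UBE2L6 was the third nearest gene to ISG15, with r = 0.904, and USP18 had r = 0.81. HERC5 and HERC6 had r = 0.913 with each other, and HERC6 had r = -0.11 with ISG15. Single libraries carried much of this. Without MCF10A control replicate b, the value for ISG15 and UBE2L6 was 0.756. Without MCF10AT1 knockdown replicate a, where both ligases are listed at 0, the value for HERC5 and HERC6 was 0.655, and that for ISG15 and HERC6 turned to 0.636. Over the 18 libraries without grouping, leaving out that same library moved r between ISG15 and HERC6 from 0.525 to 0.875.

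**Figure D4:**
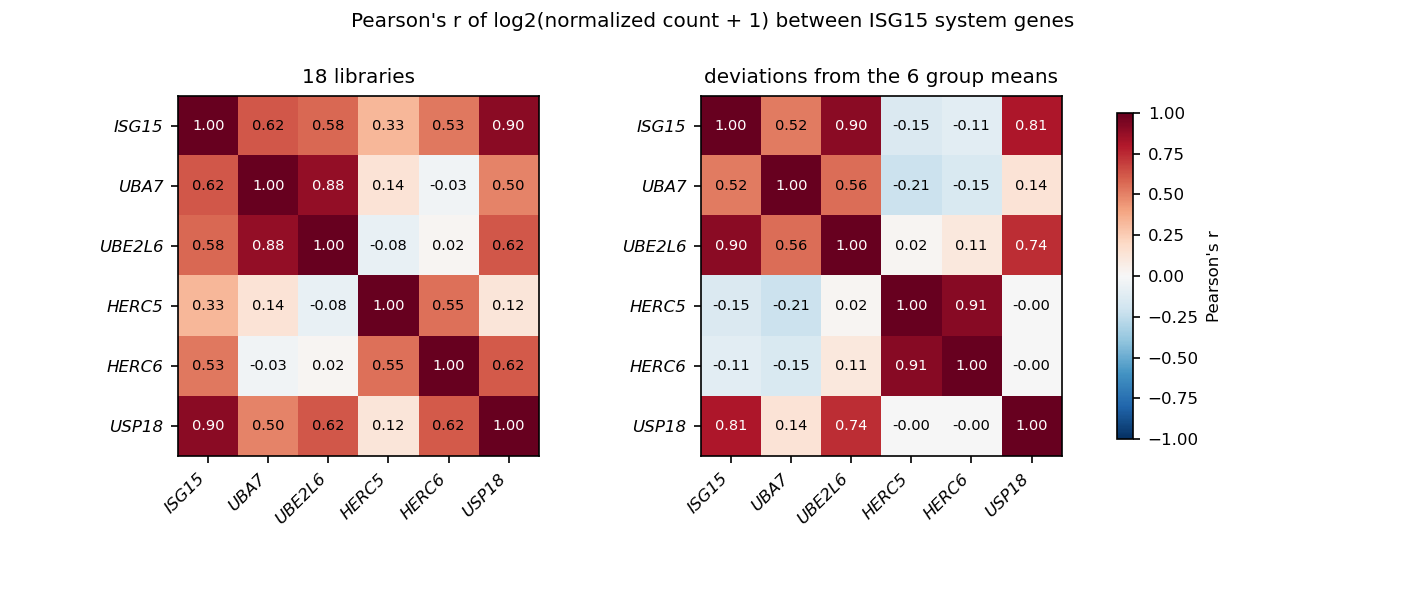
Pearson's r of log2(normalized count + 1) between the 6 genes over the 18 libraries (left) and of the deviations from the 6 group means (right), from -1 (blue) to 1 (red). ISG15 and USP18 (0.904) and UBA7 and UBE2L6 (0.875) are the highest pairs on the left, and HERC5 and HERC6 (0.913) and ISG15 and UBE2L6 (0.904) those on the right.

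Markers of cell types were read beside these results. Of all genes, 2.65% were called in MCF10A, 13.0% in MCF10AT1 and 12.8% in MCF10CA1h. In bulk RNA, more cells with a transcript and more transcript per cell cannot be told apart. Of 12 breast epithelial markers, 8 fell in MCF10AT1 with the knockdown label, where UBA7 and UBE2L6 rose. The summed level of the list was between 27159 and 55630 normalized counts there against 145577 to 184738 in the control, and CDH1, the gene of E-cadherin, was at -6.79 ± 0.68 on the log2 scale (adjusted p = 0.000474), KRT6A at -6.97 ± 0.40 and EPCAM at -5.16 ± 0.29. In the same libraries 2 of 5 tested fibroblast markers rose, THY1 by 9.61 ± 0.47 and COL3A1 by 8.95 ± 0.69, and the sum of the 8 listed was 2703 to 4509 against 427 to 659. Their part in the results on UBA7 and UBE2L6 was not tested. In MCF10CA1h, where all members were higher, 4 of 11 tested epithelial markers rose, led by KRT14 (2.15), and their sum was between 547114 and 618952 against 383577 to 402715. The sum of the fibroblast list there was 2299 to 2361 against 1270 to 1603, with COL3A1 lower (-1.22) and DCN higher (0.87). In MCF10A 2 of 11 epithelial markers rose, CLDN1 (1.42) and KRT5 (0.90), and 0 of 2 tested fibroblast markers were called by limma (2 at an unadjusted p under 0.05), with a sum of 1411 to 4249 in the knockdown against 1083 to 1970 in the control.

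Markers of leukocytes, plasmacytoid dendritic cells and endothelium were read as summed levels. PTPRC, which defines leukocytes, was between 0 and 5.31 normalized counts in the 18 libraries, and listed at 0 in 14 of them. In MCF10CA1h, where 12.8% of all genes were called, CSF1R rose by 1.49 and CD14 fell by 1.14 on the log2 scale, the 2 called of 3 tested leukocyte markers. The sum of the 7 leukocyte markers was 397 to 577 in that knockdown against 687 to 729 in its control, where the members were higher in the knockdown. It was 1770.5 to 2362 against 634 to 1450.1 in MCF10AT1, where UBA7 and UBE2L6 rose, and 125 to 185 against 247 to 437 in MCF10A, where ISG15 and USP18 were lower. The higher sum in MCF10AT1 was not a rise of the list as a whole. Its 2 tested markers had a median log2 fold change of -0.86, and 4 of the 7 were listed at 0 in all 3 knockdown libraries. Of the leukocyte markers 0 of 3 tested in MCF10A and 0 of 2 in MCF10AT1 were called by limma (2 at an unadjusted p under 0.05 in each). Of the plasmacytoid dendritic cell markers 1 was tested and 0 were called by limma in any line (1, 0 and 1 at an unadjusted p under 0.05 in MCF10A, MCF10AT1 and MCF10CA1h). The sum of the 2 with values was 189 to 448 in the MCF10A knockdown against 79.7 to 192, 40.7 to 109 against 19.7 to 127 in MCF10AT1 and 63.1 to 110.03 against 106 to 189 in MCF10CA1h. Endothelial markers had 1 call, PECAM1 at -1.20 in MCF10CA1h, with 0 called by limma in MCF10A and MCF10AT1 (2 and 0 at an unadjusted p under 0.05). Their sum was 337 to 535 in the MCF10A knockdown against 31.1 to 218, without overlap, 380 to 640.3 against 225 to 863 in MCF10AT1, and 39.7 to 73.1 against 96.3 to 137 in MCF10CA1h. The part of these 3 lists in the results on the members was not tested.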

How the data were processed

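Per the study's methods, RNA libraries were sequenced in paired ends. Per the submitters' processing notes the authors used kallisto 0.46.1 with the hg38 transcriptome and DESeq2 1.26.0 under R 4.1.1, and deposited DESeq2-normalized counts, a signal without whole reads. The labels name polyA RNA and the methods a ribosomal depletion kit, and which was used is not settled here. The transcriptome release is not given in the sources used here. Depth is unknown, since only 8.18% to 36.2% of low values (up to 10 times the commonest small value in that library) lay within 0.011 of a whole multiple of that value. No interval for counting error is given.

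Values were log2(value + 1), so fold changes of low genes are understated. Genes with a mean of at least 10 in the fit were tested with limma 3.58.1 (R 4.3.3, trend and Benjamini-Hochberg adjustment, two-sided). Each line's knockdown was fitted on its 6 libraries, interactions on 18 and controls on 9. Exact permutation tests were two-sided. Python 3.11.15 with pandas 2.3.3, NumPy 2.4.6, SciPy 1.17.1 and matplotlib 3.10.9 did the rest. The fit was also run on simulated libraries drawn independently of each other, with changes set only in genes above a set level. That run does not cover paired letters or low values, and its outcome is not reported here.

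The members and lists were chosen with earlier results of these data known. Genes were named by rule, as the 3 called genes of a list with the largest change in a line, and STAT2, IFNB1 and the values in MCF10AT1 of genes named for another line were added after they were seen. Replicate letters were checked for pairing by the correlation of deviations between libraries of the same letter. It was 0.116 to 0.221 in MCF10A and 0.110 to 0.477 in MCF10AT1, above 0.1 in every pair, and -0.011 to 0.046 in MCF10CA1h. Unlike letters reached at most 0.009 in MCF10A, but 0.251 in MCF10AT1 (control b with knockdown a) and 0.104 in MCF10CA1h (control b with knockdown a). The main fits did not use the letters. The replicate block, an alternative, used them in every line, also in MCF10CA1h. Between controls it matched letters of different lines, for which no correlation was checked. Listed genes without values (among them IFNA2, IFNG and IRF8) were not analysed here. Some genes of the lists are counted and not reported by name here.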

Additional observations from a re-analysis of the deposited data

Results flagged for a closer look

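The effect of the knockdown label differed between lines by a test of the difference itself, the interaction in limma over 18 libraries, for 9 pairs of a gene and a line comparison. Between MCF10AT1 and MCF10A these were ISG15 at 3.24, UBA7 at 4.94 and UBE2L6 at 7.47 on the log2 scale. Between MCF10CA1h and MCF10A they were ISG15 at 7.83 and USP18 at 4.20. Between MCF10CA1h and MCF10AT1 they were ISG15 at 4.59, UBE2L6 at -5.26, HERC6 at 6.65 and USP18 at 3.08. The comparisons share libraries, and each line's groups are 1 clone each, so a difference between lines and a difference between clones cannot be told apart.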

How the results depend on the processing

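Of 908 values of member fold changes under alternatives, 846 kept their direction and side of the threshold, 21 lost a call, 29 gained one and 12 changed sign, all 12 without a call. The cause was not tested.

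In MCF10A, 2 members were called with the replicate block and 2 in 1 fit of all 18 libraries, and 0 to 1 with a library left out. In MCF10AT1 1 was called at an adjusted p under 0.01, 1 to 3 with a library left out, and 3 (HERC6 also, lower) with the replicate block, in 1 fit of all 18 libraries or with a pseudocount of 5. In MCF10CA1h the fit of all 18 libraries called 2. For the effect in MCF10CA1h against MCF10A, 5 were called with a pseudocount of 5 and 4 in a fit of the lines compared. Between controls of MCF10AT1 and MCF10A, 1 was called without a filter and 0 to 2 with a library left out. For MCF10CA1h against MCF10A, 1 was called at 0.01, without a trend or with the replicate block, and 1 to 2 with a library left out. For MCF10CA1h against MCF10AT1 it was 2 with a pseudocount of 5 or the replicate block, and 1 to 2 with a library left out.

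The sign changed for HERC5 in MCF10A at equal sums (0.082) and with a library left out (-0.27 to 0.20), for UBE2L6 in MCF10A (-1.15 to 0.10) and for ISG15 in MCF10AT1 (-0.38 to 1.00). Between controls it changed for HERC6 in MCF10AT1 against MCF10A (-0.0014 at equal sums, -0.67 to 0.65 with a library left out), USP18 there (-0.10 to 0.73), HERC6 in MCF10CA1h against MCF10A (-0.51 to 0.82) and ISG15 in MCF10CA1h against MCF10AT1 (-0.045 to 0.46).

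Of the 5 genes most like ISG15, 3 were shared by Spearman's rho and 2 within groups. Over the whole table the replicate block called 1172 genes in MCF10A against 409, and 3939 in MCF10AT1 against 2091. Equal sums moved the share of higher calls from 62.0% to 50.2% in MCF10CA1h and from 51.6% to 39.6% for the effect in MCF10AT1 against MCF10A.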
